A study of Mus musculus with 12 samples.

Results

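The genes described here are 40 markers of T cells and cytotoxic lymphocytes, found by symbol among the 55335 genes of a colon RNA-seq table. All 40 were present in it. They cover the CD3 chains of the T cell receptor, its coreceptors and first signalling proteins, costimulatory and regulatory receptors, helper subset regulators, chemokine receptors, granule and natural killer genes, and the cytokines Ifng, Il17a and Il10. RNA was taken from the colons of wild-type mice, in 4 groups of 3 libraries. The groups were dextran sulfate sodium (DSS) with thymopentin, DSS with normal saline, trinitrobenzene sulfonic acid (TNBS) with thymopentin, and TNBS with normal saline. Every library is labelled colitis, and colons without colitis were not analysed here. The sources used here give no strain, sex, age, dose, route or time. DSS is a sulfated polysaccharide that injures the colon lining, and TNBS is a hapten that binds proteins and makes them targets of T cells. Thymopentin is a synthetic peptide copied from the active site of the thymic protein thymopoietin, and normal saline was given in its place. The series title puts its question to neutrophil extracellular traps and to immune balance. No label says that the libraries of a group came from separate animals, so p-values measure the spread between these samples only.

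T cells read antigen through a receptor whose CD3 chains carry the signal into the cell, where Lck, Zap70 and Lat pass it on. In the gut they lie among the epithelial cells, where most carry CD8 and granzymes, and in the connective tissue below, where CD4 helper and regulatory cells are common. Cytotoxic T cells and natural killer cells hold granzymes and perforin in granules and release interferon gamma, which switches on chemokines that draw more of them in. In whole tissue, fewer cells of a type and less RNA of a gene per cell cannot be told apart.

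Expression is given in FPKM, that is, fragments scaled to transcript length and library size, so levels can be set side by side between genes. Values of a group are listed in the order of its library numbers 1, 2 and 3, and means carry the SD with n = 3. Differences were tested with limma on log2(FPKM + 1), which understates the change of genes with low FPKM, and a gene was called higher or lower at a Benjamini-Hochberg adjusted p under 0.05. The test took genes with a mean of at least 1 FPKM over the 12 libraries, 13794 in all. Of the members 23 were among them, and 17 lay below: Cd247, Cd5, Cd6, Cd28, Icos, Foxp3, Il2ra, Ctla4, Tbx21, Gata3, Il23r, Ccr9, Prf1, Klrk1, Ifng, Il17a and Il10. A second fit with a mean of at least 0.1 FPKM and a pseudocount of 0.1 took 39 members, all but Il23r. Summed FPKM ran from 384431 to 532510 per library, and 13160 to 13805 genes reached 1 FPKM. The median of all tested genes lay at 0.12 on the log2 scale in the thymopentin response of DSS colitis, and at -0.14 in DSS against TNBS under saline. The share of calls that were higher depended on scaling: it was 74.7% in the DSS response (49.7% under median-ratio rescaling), 42.4% in the TNBS response (30.9%), 53.0% in the difference of the responses (41.3%) and 32.5% in DSS against TNBS under saline (44.9%). Epithelial markers summed to between 3899 and 8391 FPKM and all 7 T cell receptor constant genes were above 0 in every group.

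Most of the 40 genes were higher in DSS colons than in TNBS colons. A group mean of 1 FPKM was reached by 26 members with DSS thymopentin and by 26 with DSS saline, but by 4 with TNBS thymopentin (Lck, Cd2, Tnfrsf18 and Ccr7) and by 12 with TNBS saline. The median member stood at 1.216, 2.06 and 2.08 FPKM in the DSS thymopentin libraries and at 1.75, 2.76 and 2.01 FPKM in the DSS saline libraries. It stood at 0.355, 0.553 and 0.140 FPKM with TNBS thymopentin and at 0.640, 0.908 and 0.262 FPKM with TNBS saline. Within a group, some libraries were low or high for most members: TNBS thymopentin 3 was lowest of its group for 32 members, TNBS saline 3 for 35, DSS thymopentin 1 for 28 and DSS saline 1 for 26. At the other end, TNBS thymopentin 2 was highest for 25 members, TNBS saline 2 for 32 and DSS saline 2 for 31. The summed B cell markers followed the same libraries in TNBS, at 53.4, 85.4 and 2.40 FPKM with thymopentin and 75.8, 136 and 2.05 FPKM with saline, library 3 again holding the least. In DSS they were 17.4, 110.1 and 88.6 FPKM with thymopentin and 58.4, 124 and 19.6 FPKM with saline. The part of these libraries' B cell content in the results below was not tested.

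**Figure D1:**
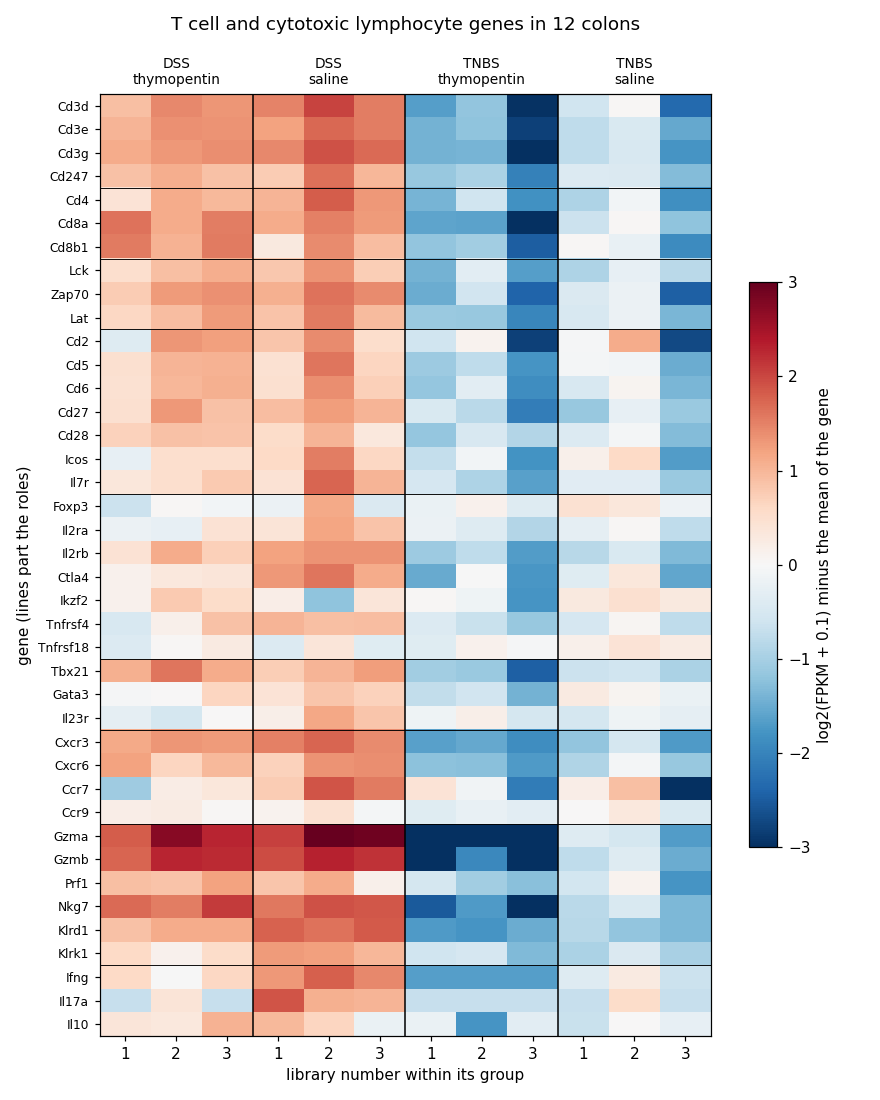
Level of the 40 member genes (rows, by role) in the 12 libraries (columns, by group), as log2(FPKM + 0.1) minus the gene's mean over the libraries; colours end at -3 and 3. The 6 DSS libraries lie above the gene's mean for most members, and the lowest column of each TNBS group is library 3.

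With thymopentin in DSS colitis, Klrd1 was lower and no other member passed. Klrd1, the CD94 chain of natural killer receptors, was at 5.03, 5.93 and 5.92 FPKM with thymopentin, against 9.39, 8.57 and 9.89 FPKM with saline. The saline libraries all lay above the thymopentin libraries, with a clear gap. Its log2 fold change was -0.63 ± 0.10 (SE; limma adjusted p = 0.00471), and it passed under each of the 22 alternatives. Of all tested genes 17.0% were called in this comparison and 4.30% were called lower, close to the share of 1 in 23 among the members. The median of the 23 was -0.17, beside 0.12 for all tested genes, and it was -0.07 without DSS thymopentin 1 and -0.27 without DSS saline 1. Fold changes were negative for 19 members and positive for Cd8a, Cd8b1, Ikzf2 and Tnfrsf18, of which Cd8a turned negative under median-ratio rescaling and quantile normalization and Tnfrsf18 under the first. Of the 39 members with a mean of at least 0.1 FPKM, 12 were lower with no overlap of the groups and 0 higher, where 12.2% of all such genes were lower and 22.7% higher in this way. They were Cd3d, Cd3g, Icos, Il2rb, Ctla4, Tnfrsf4, Cxcr3, Ccr7, Klrd1, Klrk1, Ifng and Il17a, and Il23r, below that level, did the same. In the fit that takes low genes, Ifng and Il17a passed beside Klrd1, in a background of 2.37% called lower. Il17a, with a mean of 0.102 FPKM over the 12 libraries, reached the 0.1 FPKM filter only through its DSS saline values. Its call and its place among the 12 members thus rest on the values that let it in.

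With thymopentin in TNBS colitis, all 23 tested members had lower means on the log2 scale than with saline, but only Gzma passed the test. Gzma, the tryptase of cytotoxic granules, was at 0.361, 0.590 and 0.133 FPKM in the TNBS thymopentin colons, against 5.53, 5.01 and 2.19 FPKM in the TNBS saline colons. The highest thymopentin library thus lay well below the lowest saline library. Its log2 fold change was -1.89 ± 0.34 (SE; limma adjusted p = 0.0385), where 0.667% of all tested genes were called and 0.384% were called lower. Gzmb, Nkg7, Cd8a and Klrd1 had an unadjusted p under 0.05 and did not pass. The median of the 23 was -0.29, beside 0.03 for all tested genes, and leaving out TNBS saline 3 moved it to -0.44 and leaving out TNBS saline 2 to -0.20. Counted over libraries, 11 of the 39 members with a mean of at least 0.1 FPKM were lower with thymopentin with no overlap of the groups, and 0 were higher; of all such genes 5.91% were lower and 11.7% higher in this way. These were Cd8a, Ikzf2, Tnfrsf18, Tbx21, Gata3, Cxcr6, Gzma, Gzmb, Nkg7, Klrd1 and Ifng. The call of Gzma was lost when TNBS thymopentin 1, 2 or 3, TNBS saline 1 or 2, DSS thymopentin 3 or DSS saline 3 was left out (adjusted p between 0.0614 and 0.149), and the fold change was then between -2.01 and -1.70. It was also lost with only the TNBS libraries fitted (0.113), with no filter (0.102) and without both TNBS library 3 samples (0.0599). With the replicate number as a block, same-numbered TNBS libraries having deviated together, Gzmb and Nkg7 passed as well (limma adjusted p = 0.0291 and 0.0488).

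**Figure D2:**
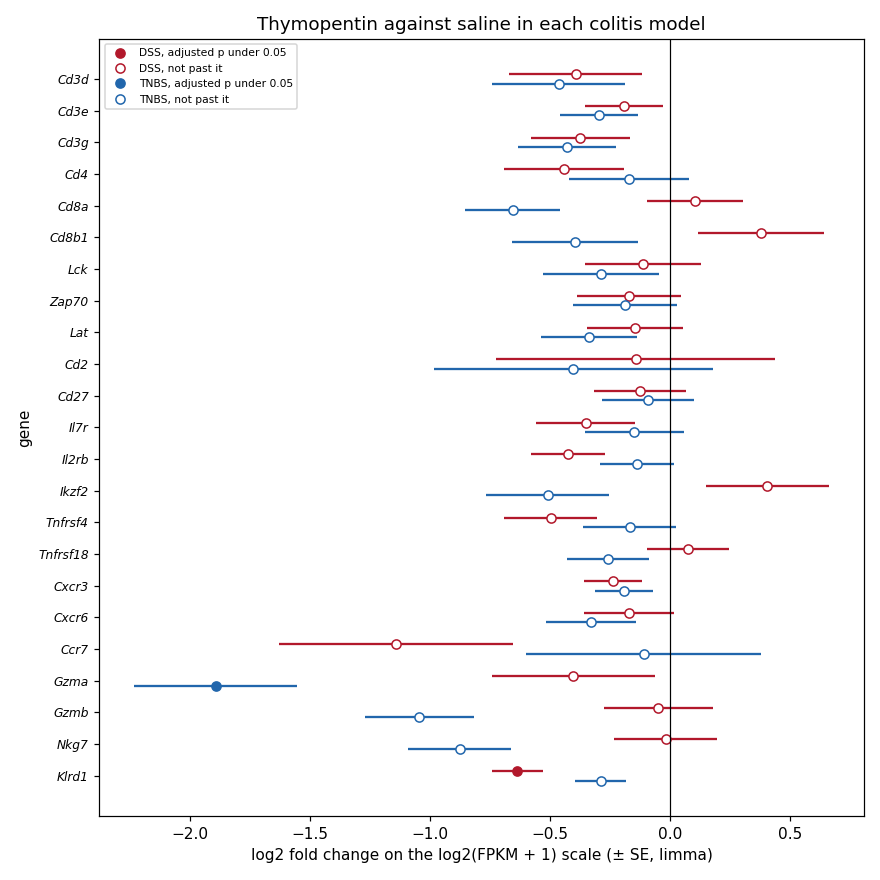
Log2 fold change of thymopentin against saline (horizontal axis, log2(FPKM + 1) scale, bars are limma's SE) for the 23 tested members, in DSS (red, upper of each pair) and TNBS colitis (blue, lower); filled points passed an adjusted p under 0.05. The filled points are Klrd1 in DSS (-0.63) and Gzma in TNBS (-1.89).

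No member's thymopentin response was called different between the models under the design as set. The test of the difference (DSS response minus TNBS response) called 0 of 23 members by limma, 6 having an unadjusted p under 0.05, while 5.15% of all tested genes were called. The 6 were Gzma (log2 difference 1.49 ± 0.48, adjusted p = 0.1005), Gzmb (0.996 ± 0.32), Nkg7 (0.86 ± 0.30), Cd8a (0.76 ± 0.28), Ikzf2 (0.91 ± 0.36) and Klrd1 (-0.35 ± 0.15). The first 5 had the lower response in TNBS and Klrd1 had it in DSS. Gzma passed without TNBS saline 3 (adjusted p = 0.0411), with the replicate block (0.0310), with array weights (0.0124) and with a pseudocount of 0.1 (0.0377); in the fit that takes low genes it passed at 0.0443, where 1.66% of genes were called higher. Gzmb passed without TNBS thymopentin 2 (0.0491), with the replicate block (0.0370) and with array weights (0.0158). The 2 members lower without overlap in both models were Klrd1 and Ifng, and 0 members were separated in opposite directions. The share of all genes separated in these ways was not counted, so these counts cannot be set against a background.

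Between the models, 18 of the 23 tested members were higher in DSS than in TNBS colons under thymopentin, and 0 were lower (limma). Those that did not pass were Cd2, Ikzf2, Tnfrsf4, Tnfrsf18 and Ccr7. Of all tested genes 27.5% were called, 11.0% as higher in DSS and 16.5% as lower. The median of the members was 1.37, beside -0.04 for all genes tested. Under saline 19 of 23 were higher and 0 lower, Tnfrsf4 now passing; 46.6% of all tested genes were called, 15.2% as higher and 31.5% as lower. The members' median was 1.28, beside -0.14. Since several members passed the expression filter only through their DSS values, these counts do not stand for all 40. Over all 40 members, 31 under thymopentin and 33 under saline were higher in every DSS library than in every TNBS library. Of the 39 with a mean of at least 0.1 FPKM these were 31 and 32, where 16.0% of such genes under thymopentin and 20.1% under saline were separated in this way. The fit that takes low genes called 27 of 39 members higher under thymopentin, in a background of 7.19%, and 30 of 39 under saline, in a background of 14.8%.

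**Figure D3:**
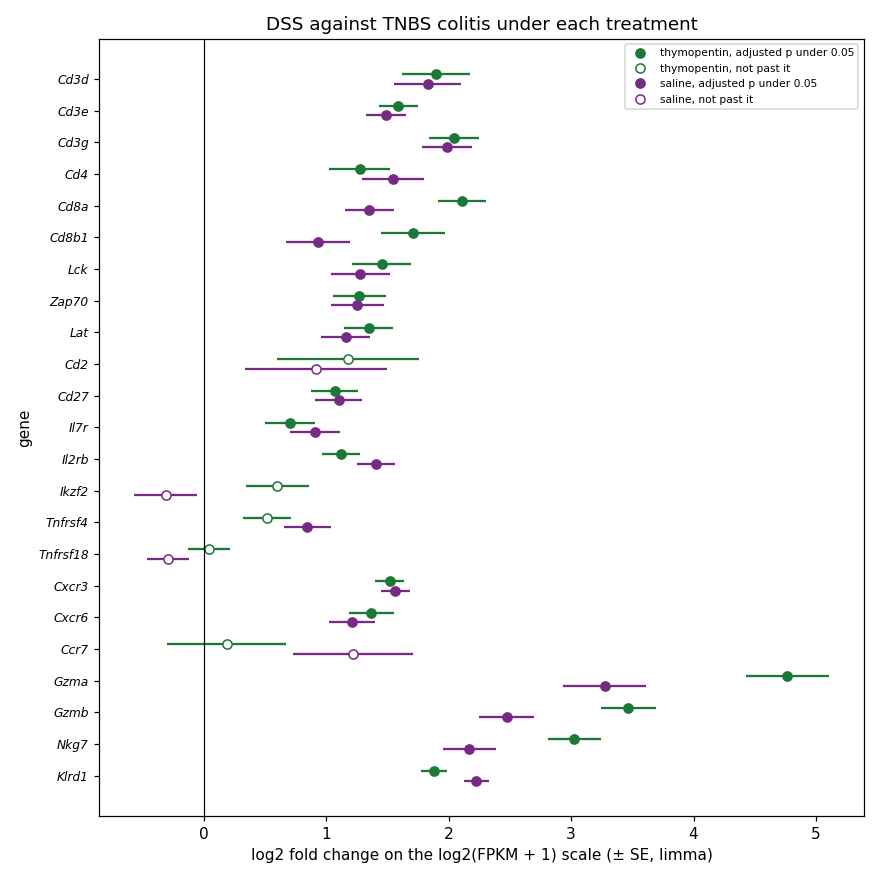
Log2 fold change of DSS against TNBS colitis (horizontal axis, log2(FPKM + 1) scale, bars are limma's SE) for the 23 tested members under thymopentin (green, upper of each pair) and saline (purple, lower); filled points passed an adjusted p under 0.05. Gzma lies farthest to the right, at 4.77 under thymopentin and 3.28 under saline, and Tnfrsf18 lies at 0.04 under thymopentin and -0.29 under saline.

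The 300 bases around the start of 4 members are shown: Gzma, called lower with thymopentin in TNBS colitis, Gzmb and Ifng, whose TNBS groups did not overlap but which did not pass, and Cd3e as the lineage gene beside them. Sequences are from RefSeq on GRCm38.p6, 250 bases before to 50 after the start of the gene, read 5′ to 3′ on the gene's strand; 29 of the 40 members matched the RefSeq promoter table, with 33 windows. Capitals mark matches to TGTGGT (RUNX), TGANTCA (AP-1) or TTCNNNGAA (the gamma-activated site bound by STAT proteins), on either strand; GGTGTG (T-box) was searched as well and has no match in these 4.
Gzma (chr13:113100932-113101231, minus strand): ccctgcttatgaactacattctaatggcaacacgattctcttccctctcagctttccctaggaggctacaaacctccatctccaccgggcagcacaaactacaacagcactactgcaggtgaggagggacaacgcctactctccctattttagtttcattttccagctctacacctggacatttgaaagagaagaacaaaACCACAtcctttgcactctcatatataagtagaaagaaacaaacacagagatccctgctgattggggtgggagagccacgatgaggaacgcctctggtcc
Gzmb (chr14:56262285-56262584, minus strand): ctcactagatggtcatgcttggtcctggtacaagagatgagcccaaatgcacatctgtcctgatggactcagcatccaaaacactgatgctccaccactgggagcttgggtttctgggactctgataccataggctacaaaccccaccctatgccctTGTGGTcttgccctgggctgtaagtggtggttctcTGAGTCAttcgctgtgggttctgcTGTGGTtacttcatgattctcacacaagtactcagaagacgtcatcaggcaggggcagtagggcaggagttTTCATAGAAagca
Ifng (chr10:118440796-118441095, plus strand): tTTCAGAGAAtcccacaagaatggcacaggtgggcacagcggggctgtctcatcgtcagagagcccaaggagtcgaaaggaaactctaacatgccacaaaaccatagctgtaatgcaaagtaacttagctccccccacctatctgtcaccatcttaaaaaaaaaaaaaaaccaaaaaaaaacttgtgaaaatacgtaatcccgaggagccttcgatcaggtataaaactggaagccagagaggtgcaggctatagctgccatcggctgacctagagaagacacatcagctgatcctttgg
Cd3e (chr9:45009562-45009861, minus strand): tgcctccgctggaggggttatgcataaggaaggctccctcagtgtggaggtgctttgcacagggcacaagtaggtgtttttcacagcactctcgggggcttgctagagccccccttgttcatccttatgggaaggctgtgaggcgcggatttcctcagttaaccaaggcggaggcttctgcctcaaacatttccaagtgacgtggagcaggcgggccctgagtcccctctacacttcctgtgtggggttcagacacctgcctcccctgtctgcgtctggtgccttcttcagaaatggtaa
Counted from the start, the Gzma window holds a RUNX match at -50, on the other strand. The Gzmb window holds RUNX matches at -93 and -34, an AP-1 match at -58 and a gamma-activated site match at 37, and the Ifng window a gamma-activated site match at -249. The Cd3e window holds no match to the 4 motifs. Among the 33 member windows, RUNX matched 36.4%, beside 16.8% of all 32851 windows of this length. The gamma-activated site matched 21.2%, beside 8.30%, AP-1 matched 9.09%, beside 7.81%, and T-box matched 21.2%, beside 19.0%. Such a match describes letters and is no evidence of binding. Several members are neighbours with no protein-coding gene between them in RefSeq, namely Cd3g, Cd3d and Cd3e on chromosome 9, Cd8b1 and Cd8a on chromosome 6, Klrd1 and Klrk1 on chromosome 6, Cd28, Ctla4 and Icos on chromosome 1, Tnfrsf4 and Tnfrsf18 on chromosome 4, and Cd5 and Cd6 on chromosome 19.

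The CD3 chains, which pair with the T cell receptor, are the defining transcripts of T cells. Cd3e was at 2.44, 3.12 and 3.10 FPKM with thymopentin and 2.77, 4.04 and 3.54 FPKM with saline in DSS colons, and at 0.365, 0.442 and 0.0801 FPKM with thymopentin and 0.634, 0.805 and 0.329 FPKM with saline in TNBS colons. Cd3d was at 3.498, 5.12 and 4.67 FPKM with DSS thymopentin, 5.25, 7.73 and 5.47 FPKM with DSS saline, 0.513, 0.739 and 0.145 FPKM with TNBS thymopentin and 1.16, 1.85 and 0.279 FPKM with TNBS saline. For Cd3g the libraries held 4.75, 5.43 and 5.85 FPKM with DSS thymopentin, 6.08, 8.37 and 7.29 FPKM with DSS saline, 0.750, 0.755 and 0.173 FPKM with TNBS thymopentin and 1.23, 1.51 and 0.567 FPKM with TNBS saline. Each of the 3 chains was higher in every DSS library than in any TNBS library, whichever the treatment, and in both TNBS groups library 3 was the lowest. Thymopentin and saline libraries overlapped for all 3 in TNBS and for Cd3e in DSS, while Cd3d and Cd3g did not overlap in DSS. The log2 fold change of DSS against TNBS was 1.59 ± 0.16 under thymopentin and 1.49 ± 0.16 under saline for Cd3e (limma adjusted p = 0.000244 and 0.000118). For thymopentin against saline it was -0.19 ± 0.16 in DSS (95% interval -0.55 to 0.17) and -0.29 ± 0.16 in TNBS (95% interval -0.65 to 0.07), and neither passed (adjusted p = 0.439 and 0.506). Cd247, the zeta chain, averaged 1.005 ± 0.0978 FPKM with DSS thymopentin, 1.20 ± 0.433 with DSS saline, 0.132 ± 0.0818 with TNBS thymopentin and 0.262 ± 0.114 with TNBS saline, in the same order as the other chains.

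No coreceptor passed in either thymopentin response. Cd4, which binds MHC class II, was at 2.14, 3.56 and 3.24 FPKM with DSS thymopentin, 3.35, 5.89 and 4.07 FPKM with DSS saline, 0.548, 1.02 and 0.378 FPKM with TNBS thymopentin and 0.791, 1.49 and 0.376 FPKM with TNBS saline. The treatment groups overlapped in both models, and library 3 was the lowest in both TNBS groups. Cd8a, which binds MHC class I, was at 5.64, 3.92 and 5.30 FPKM with DSS thymopentin and 3.97, 5.18 and 4.40 FPKM with DSS saline, groups that overlapped. In TNBS colons it was at 0.521, 0.510 and 0.114 FPKM with thymopentin and 1.09, 1.81 and 0.704 FPKM with saline, and every thymopentin library lay below every saline library. Its log2 fold change was 0.10 ± 0.20 in DSS and -0.65 ± 0.20 in TNBS, and neither passed (limma adjusted p = 0.752 and 0.191). Cd8b1, the partner chain of Cd8a on most cytotoxic T cells, was at 4.04, 2.81 and 4.04 FPKM with DSS thymopentin, 1.63, 3.65 and 2.59 FPKM with DSS saline, 0.517, 0.589 and 0.154 FPKM with TNBS thymopentin and 1.34, 1.12 and 0.279 FPKM with TNBS saline. Its TNBS groups overlapped through saline library 3, and the DSS groups overlapped as well. All 3 coreceptors were higher in DSS than in TNBS under both treatments, Cd8a with log2 fold changes of 2.11 ± 0.20 under thymopentin and 1.35 ± 0.20 under saline. The call of Cd8b1 under saline was lost without DSS saline 2 or TNBS saline 3 (limma adjusted p = 0.0549 and 0.0502).

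Of the first signalling proteins, Lck, the kinase that starts the signal, was at 4.37, 5.84 and 6.60 FPKM with DSS thymopentin, 5.45, 7.89 and 5.14 FPKM with DSS saline, 1.08, 2.44 and 0.903 FPKM with TNBS thymopentin and 1.56, 2.57 and 1.70 FPKM with TNBS saline. Zap70, the kinase recruited next, was at 1.60, 2.35 and 2.496 FPKM with DSS thymopentin, 1.99, 3.02 and 2.61 FPKM with DSS saline, 0.258, 0.579 and 0.0892 FPKM with TNBS thymopentin and 0.647, 0.787 and 0.0855 FPKM with TNBS saline. Lat, the adaptor that gathers the downstream proteins, was at 2.18, 2.70 and 3.47 FPKM with DSS thymopentin, 2.59, 4.28 and 2.76 FPKM with DSS saline, 0.583, 0.569 and 0.282 FPKM with TNBS thymopentin and 0.961, 1.216 and 0.472 FPKM with TNBS saline. Treatment groups overlapped for all 3 genes in both models, and each was higher in every DSS library than in any TNBS library. Lck was the highest of the 3 in all 12 libraries, and its ratio of group means, DSS over TNBS, was 3.80 under thymopentin and 3.17 under saline. Log2 fold changes of thymopentin against saline ran from -0.17 to -0.11 in DSS and from -0.34 to -0.19 in TNBS, and none passed.

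Among surface and costimulatory receptors, Cd27, the receptor of CD70, was at 1.57, 2.86 and 2.10 FPKM with DSS thymopentin, 2.19, 2.75 and 2.31 FPKM with DSS saline, 0.778, 0.579 and 0.184 FPKM with TNBS thymopentin and 0.449, 0.904 and 0.452 FPKM with TNBS saline. Il7r, which keeps resting T cells and innate lymphoid cells alive, was at 1.04, 1.18 and 1.44 FPKM with DSS thymopentin, 1.12, 2.92 and 1.71 FPKM with DSS saline, 0.534, 0.373 and 0.189 FPKM with TNBS thymopentin and 0.613, 0.610 and 0.312 FPKM with TNBS saline. For both genes treatment groups overlapped and all DSS libraries lay above all TNBS libraries. The call of Il7r between the models under thymopentin (log2 fold change 0.70 ± 0.20, limma adjusted p = 0.0282) was lost without TNBS thymopentin 2 or 3 (adjusted p = 0.0647 and 0.0932). Cd2, an adhesion receptor that mouse B cells carry too, was at 1.77, 6.05 and 5.62 FPKM with DSS thymopentin, 4.25, 6.45 and 3.46 FPKM with DSS saline, 1.53, 2.53 and 0.255 FPKM with TNBS thymopentin and 2.28, 5.21 and 0.274 FPKM with TNBS saline. It was lowest in DSS thymopentin 1, DSS saline 3, TNBS thymopentin 3 and TNBS saline 3, each the library with the least B cell marker FPKM of its group, and passed in no comparison. Cd5, Cd6, Cd28 and Icos, regulators and costimulators of receptor signalling, had group means of at most 1.36 FPKM, and in the fit that takes low genes Cd5, Cd6 and Cd28 were called higher in DSS under both treatments. Icos was lower with thymopentin in DSS without overlap, at 0.516, 0.942 and 0.942 FPKM against 1.01, 2.03 and 1.03 FPKM with saline, and the values of DSS thymopentin 2 and 3 came close to that of saline 1.

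Foxp3, the master regulator of regulatory T cells, was near the floor of the data. It was at 0.0374, 0.121 and 0.105 FPKM with DSS thymopentin, 0.0910, 0.379 and 0.0591 FPKM with DSS saline, 0.0891, 0.135 and 0.0654 FPKM with TNBS thymopentin and 0.198, 0.172 and 0.0952 FPKM with TNBS saline. All groups overlapped, between treatments and between models, and the highest value was the single library DSS saline 2. In the fit that takes low genes its log2 fold changes were -0.41 ± 0.41 in DSS and -0.37 ± 0.41 in TNBS for thymopentin, and -0.08 ± 0.41 under thymopentin and -0.04 ± 0.41 under saline for DSS against TNBS (limma adjusted p between 0.555 and 0.950).

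Several other genes of activated and regulatory T cells were lower with thymopentin in DSS without overlap of the groups, and their response was not called as different between the models. Ctla4, the inhibitory receptor that competes for CD28 ligands, was at 0.775, 0.900 and 0.926 FPKM with DSS thymopentin and 1.88, 2.34 and 1.64 FPKM with DSS saline, and at 0.182, 0.6998 and 0.141 FPKM with TNBS thymopentin and 0.522, 0.913 and 0.174 FPKM with TNBS saline. Every DSS thymopentin library lay below 1 FPKM and every DSS saline library above it, while the TNBS groups overlapped. In the fit that takes low genes the DSS log2 fold change of Ctla4 was -1.08 ± 0.51 and did not pass (limma adjusted p = 0.192). Il2rb, the beta chain of the receptors for interleukin 2 and 15, was at 1.91, 3.12 and 2.34 FPKM with DSS thymopentin, 3.38, 3.69 and 3.73 FPKM with DSS saline, 0.601, 0.784 and 0.373 FPKM with TNBS thymopentin and 0.745, 0.988 and 0.499 FPKM with TNBS saline. Tnfrsf4, the costimulatory receptor OX40, was at 0.830, 1.35 and 2.26 FPKM with DSS thymopentin, 2.54, 2.32 and 2.34 FPKM with DSS saline, 0.866, 0.718 and 0.491 FPKM with TNBS thymopentin and 0.806, 1.25 and 0.665 FPKM with TNBS saline. Neither gene overlapped between the DSS groups, and both overlapped between the TNBS groups. Their log2 fold changes in DSS were -0.43 ± 0.15 for Il2rb and -0.50 ± 0.19 for Tnfrsf4, and neither passed (limma adjusted p = 0.0799 and 0.101). Il2rb passed under median-ratio rescaling (0.0404), quantile normalization (0.0188) and array weights (0.0471), and Tnfrsf4 without DSS thymopentin 3 (0.0315). Il2ra, the high-affinity chain of the interleukin 2 receptor, averaged 0.264 ± 0.0997 FPKM with DSS thymopentin and 0.539 ± 0.172 FPKM with DSS saline, against 0.161 ± 0.0622 and 0.191 ± 0.0794 FPKM with TNBS thymopentin and TNBS saline. Its treatment groups overlapped in both models, and its DSS response did not pass in the fit that takes low genes (limma adjusted p = 0.136). Ikzf2 (Helios) and Tnfrsf18 (GITR), both found on regulatory T cells, were not called between the models. Ikzf2 was at 1.40, 2.28 and 1.91 FPKM with DSS thymopentin, 1.48, 0.492 and 1.67 FPKM with DSS saline, 1.32, 1.17 and 0.303 FPKM with TNBS thymopentin and 1.58, 1.83 and 1.58 FPKM with TNBS saline. Tnfrsf18 lay between 1.58 and 2.89 FPKM in all 12 libraries and averaged 2.14 ± 0.508 FPKM with DSS thymopentin, 2.002 ± 0.671 with DSS saline, 2.04 ± 0.371 with TNBS thymopentin and 2.62 ± 0.241 with TNBS saline. Both were lower with thymopentin in TNBS without overlap, and neither passed in any comparison, except that Tnfrsf18 was called lower in DSS than in TNBS under saline when DSS saline 2 was left out (adjusted p = 0.0333).

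The helper subset regulators were all below the expression filter. Tbx21, the regulator of Th1 and cytotoxic programs, averaged 1.221 ± 0.290 FPKM with DSS thymopentin, 0.994 ± 0.192 with DSS saline, 0.105 ± 0.0908 with TNBS thymopentin and 0.228 ± 0.0409 with TNBS saline. Gata3, the regulator of Th2 cells, averaged 0.346 ± 0.128 FPKM with DSS thymopentin, 0.494 ± 0.0888 with DSS saline, 0.108 ± 0.0590 with TNBS thymopentin and 0.295 ± 0.0624 with TNBS saline. Both were lower with thymopentin in TNBS without overlap (log2 fold changes -0.80 ± 0.36 and -0.96 ± 0.30 in the fit that takes low genes) and did not pass there (limma adjusted p = 0.415 and 0.207). Tbx21 was called higher in DSS than in TNBS under both treatments there, and Gata3 under thymopentin. For Gata3 the test of the difference, 0.52 ± 0.42 on the log2 scale, did not pass (adjusted p = 0.538). Il23r, the receptor of interleukin 23 on Th17 cells, reached 0.218 FPKM at most, in DSS saline 2, and at most 0.0436 FPKM with DSS thymopentin.

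The chemokine receptors mark where lymphocytes home. Cxcr3, the receptor of the interferon-induced chemokines Cxcl9, Cxcl10 and Cxcl11, was at 2.39, 2.73 and 2.66 FPKM with DSS thymopentin, 3.12, 3.696 and 2.94 FPKM with DSS saline, 0.264, 0.291 and 0.212 FPKM with TNBS thymopentin and 0.399, 0.681 and 0.250 FPKM with TNBS saline. Cxcr6, the receptor of Cxcl16 on tissue-resident T cells, was at 3.41, 2.30 and 2.89 FPKM with DSS thymopentin, 2.39, 3.81 and 3.94 FPKM with DSS saline, 0.557, 0.537 and 0.370 FPKM with TNBS thymopentin and 0.721, 1.36 and 0.601 FPKM with TNBS saline. Both were higher in every DSS library than in any TNBS library; thymopentin libraries lay below saline libraries without overlap for Cxcr3 in DSS and for Cxcr6 in TNBS. Neither response passed, Cxcr3 having a log2 fold change of -0.24 ± 0.12 in DSS (limma adjusted p = 0.191). Ccr7, which leads naive T cells and B cells to lymphoid tissue, was at 0.723, 1.90 and 2.06 FPKM with DSS thymopentin, 2.81, 6.20 and 4.98 FPKM with DSS saline, 2.20, 1.5 and 0.299 FPKM with TNBS thymopentin and 1.86, 3.11 and 0.110 FPKM with TNBS saline. In DSS the groups did not overlap, and the log2 fold change was -1.14 ± 0.49 (adjusted p = 0.129). In TNBS both groups held a library far below the others, library 3, which was also lowest for B cell markers. Between the models Ccr7 did not pass under saline (adjusted p = 0.0626), but did without TNBS saline 2 (0.0249) and under median-ratio rescaling (0.0445), quantile normalization (0.0392) and array weights (0.0185). Ccr9, the gut-homing receptor of Ccl25, averaged between 0.141 and 0.237 FPKM in the 4 groups.

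Gzma spanned the widest range of FPKM of all members, 0.133 to 63.3. In DSS colons it was at 25.9, 48.9 and 35.8 FPKM with thymopentin and 30.5, 63.3 and 55.2 FPKM with saline, groups that overlapped, all far above the TNBS values given earlier. The ratio of its group means, DSS over TNBS, was 102 under thymopentin and 11.7 under saline. Gzmb, the protease that triggers death of target cells, was at 10.2, 14.8 and 14.4 FPKM with DSS thymopentin, 11.8, 15.1 and 13.7 FPKM with DSS saline, 0.0580, 0.708 and 0.114 FPKM with TNBS thymopentin and 1.71, 2.26 and 0.995 FPKM with TNBS saline. Nkg7, a granule membrane protein of killer cells, was at 10.3, 9.14 and 13.6 FPKM with DSS thymopentin, 9.53, 12.02 and 11.6 FPKM with DSS saline, 0.457, 0.891 and 0.118 FPKM with TNBS thymopentin and 1.72, 2.25 and 1.15 FPKM with TNBS saline. For both genes the TNBS thymopentin libraries lay below all TNBS saline libraries, while the DSS groups overlapped. Log2 fold changes in DSS were -0.05 ± 0.23 for Gzmb (95% interval -0.55 to 0.45) and -0.02 ± 0.21 for Nkg7 (95% interval -0.49 to 0.46), and in TNBS they were -1.04 ± 0.23 for Gzmb and -0.88 ± 0.21 for Nkg7 (limma adjusted p = 0.0775 and 0.111). Gzmb passed in TNBS without TNBS thymopentin 2 (0.0370), the library with the most Gzmb of its group, and under quantile normalization (0.0437) and array weights (0.00572). Klrd1 was at 0.767, 0.726 and 0.903 FPKM with TNBS thymopentin and 1.48, 1.13 and 1.003 FPKM with TNBS saline, again without overlap, and had the smallest p of all members between the models, with log2 fold changes of 1.88 ± 0.10 under thymopentin and 2.23 ± 0.10 under saline (limma adjusted p = 7.81e-06 and 1.75e-06). Klrk1 (NKG2D), a receptor of stress ligands, was lower with thymopentin in DSS without overlap, at 0.507, 0.343 and 0.487 FPKM against 0.884, 0.846 and 0.707 FPKM with saline, but its TNBS groups overlapped. Prf1, the pore-forming perforin, averaged 0.576 ± 0.0922 FPKM with DSS thymopentin, 0.473 ± 0.183 with DSS saline, 0.0811 ± 0.0483 with TNBS thymopentin and 0.132 ± 0.132 with TNBS saline, and its treatment groups overlapped in both models.

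**Figure D4:**
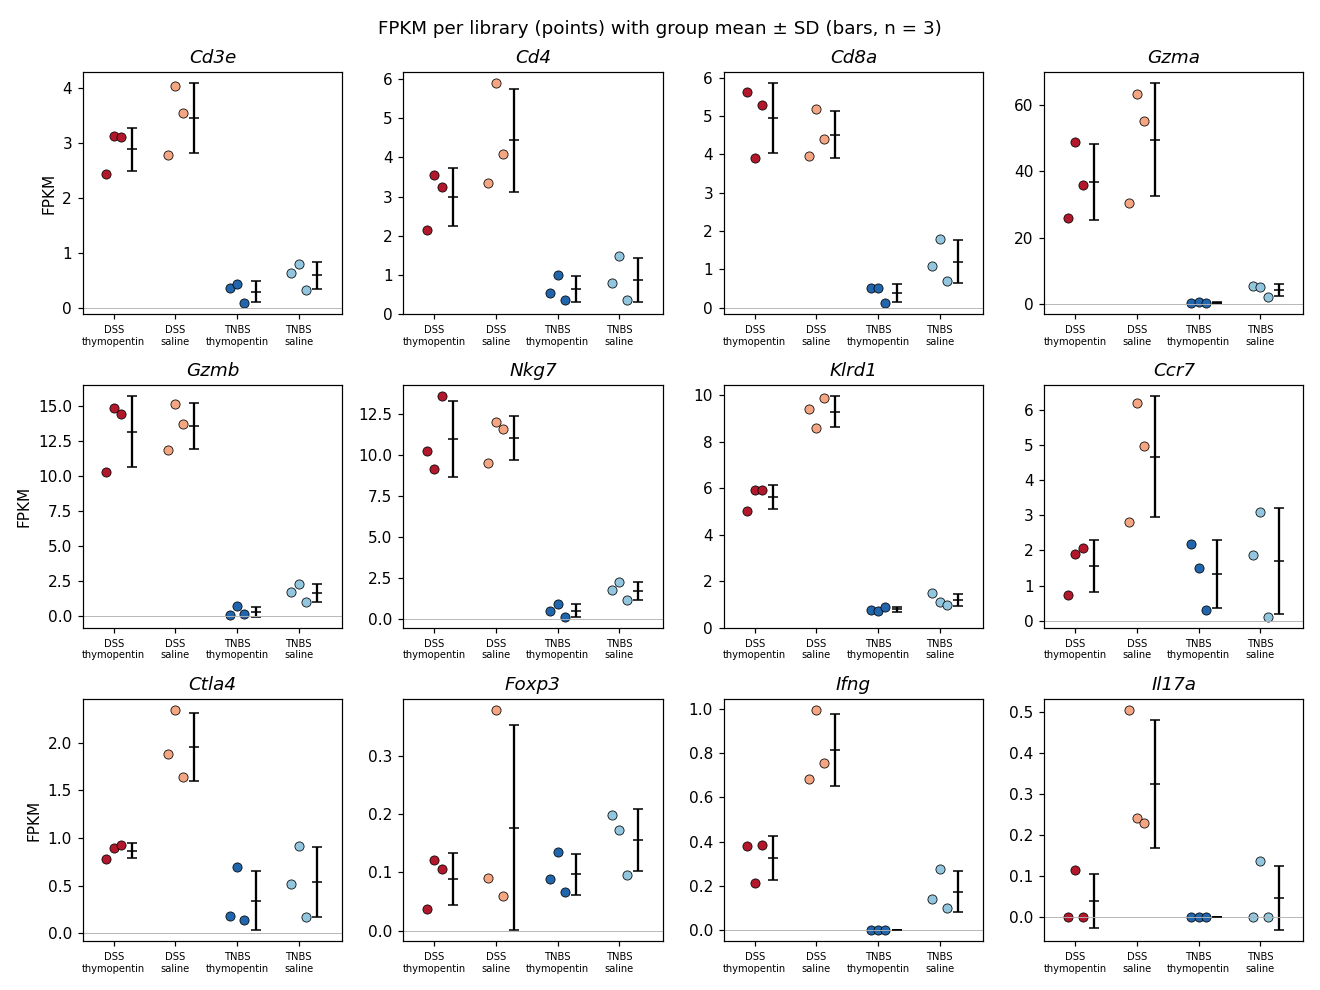
FPKM (vertical axis, linear, scale set per gene) of 12 members in each of the 12 libraries (points); bars beside them are group means ± SD, n = 3. In TNBS every thymopentin point of Gzma, Gzmb, Nkg7, Cd8a, Klrd1 and Ifng lies below every saline point, in DSS those of Klrd1, Ccr7, Ctla4, Ifng and Il17a do, and Foxp3 overlaps throughout.

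The cytokines were expressed at low levels, below 1 FPKM in every library. Ifng, the product of Th1, cytotoxic and natural killer cells, was at 0.380, 0.212 and 0.386 FPKM with DSS thymopentin and 0.684, 0.995 and 0.757 FPKM with DSS saline. In TNBS it was listed at 0 in all 3 thymopentin libraries and at 0.141, 0.279 and 0.103 FPKM in the saline libraries. The groups did not overlap in either model. In the fit that takes low genes the DSS log2 fold change was -1.11 ± 0.29 (limma adjusted p = 0.0379), and the TNBS comparison did not pass (adjusted p = 0.0695), where 0.342% of all genes in that fit were called lower. Il17a, the signature cytokine of Th17 cells, was at 0, 0.114 and 0 FPKM with DSS thymopentin and 0.505, 0.241 and 0.228 FPKM with DSS saline, and in that fit its log2 fold change was -1.66 ± 0.44 (adjusted p = 0.0384). It reached the filter of that fit only through its DSS saline values, so the filter and the call rest on the same values. In TNBS Il17a was above 0 in a single library, saline 2, at 0.137 FPKM. Il10, an anti-inflammatory cytokine of regulatory T cells and macrophages, was at 0.336, 0.323 and 0.597 FPKM with DSS thymopentin, 0.566, 0.431 and 0.194 FPKM with DSS saline, 0.197, 0 and 0.174 FPKM with TNBS thymopentin and 0.112, 0.243 and 0.183 FPKM with TNBS saline. Its treatment groups overlapped in both models, and it was called in no comparison.

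The authors' deposited tables list selected genes for each model, none with a p above 0.0499 or a fold change smaller than 1 on the log2 scale, and hold log2 values from which whole reads could be recovered. In the authors' deposited table for DSS, 6 of the 40 members appear, all lower with thymopentin at an FDR under 0.05. It lists 2326 of all 55335 genes, or 4.20%, in either direction. Only 21642 of the 55335 genes had a mean of at least 0.1 FPKM, against 39 of the 40 members. This share and the one for TNBS below are thus no like background for the members. Ctla4 had 70, 69 and 88 reads with thymopentin against 184, 211 and 147 with saline (log2 fold change -1.27, FDR 5.35e-06 in the authors' deposited table), and Ccr7 had 55, 122 and 165 against 232, 475 and 379 (-1.76, FDR 7.05e-05). The other 4 in the authors' deposited table were Il2ra (-1.15, FDR 0.0127), Ifng (-1.42, FDR 0.0140), Il17a (-3.10, FDR 0.0330) and Il23r (-2.53, FDR 0.0448), the last from 2, 0 and 5 reads against 7, 21 and 15. None of the 6 in DSS was called by limma at a mean of at least 1 FPKM: 5 lay below that filter, and Ccr7 did not pass. In the fit that takes low genes Ifng and Il17a passed, and Ctla4, Il2ra and Ccr7 did not. Il17a reached the filter of that fit only through its DSS saline values. In the authors' deposited table for TNBS, 6 members appear, all lower with thymopentin, 3 of them at an FDR under 0.05; it lists 1173 genes, or 2.12%, in either direction. Gzma had 16, 24 and 6 reads with thymopentin against 239, 186 and 99 with saline in the authors' deposited table (log2 fold change -3.52, FDR 6.23e-09), and Gzmb had 4, 40 and 7 against 106, 121 and 64 (-3.01, FDR 0.0252). Ifng had 0 reads in each thymopentin library against 8, 14 and 6 with saline (log2 fold change -3.21, FDR 0.0124 in the authors' deposited table). Against a floor of 3 reads over the thymopentin group, the saline group was 9.62-fold higher. That ratio takes the few saline reads as exact and leaves out the spread between libraries, so it is no lower bound. Cd8a, Nkg7 and Gata3 were listed by the authors' deposited table with an FDR of 0.0646, 0.0820 and 0.0961. In these genes 1 read was worth between 0.00419 and 0.0292 FPKM. The Gzmb value of 0.0580 FPKM in TNBS thymopentin 1 thus came from 4 reads.

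Set against the CD3 chains of the same library, Gzma, Gzmb and Nkg7 did not overlap between the TNBS groups. This ratio, the FPKM of a gene over the summed FPKM of Cd3d, Cd3e and Cd3g, was formed after the values had been seen and is given as a description with no test. The CD3 sum itself was 10.7, 13.7 and 13.6 FPKM with DSS thymopentin, 14.1, 20.1 and 16.3 FPKM with DSS saline, 1.63, 1.94 and 0.398 FPKM with TNBS thymopentin and 3.03, 4.17 and 1.17 FPKM with TNBS saline. Gzma per CD3 was 2.42, 3.58 and 2.63 with DSS thymopentin and 2.16, 3.14 and 3.39 with DSS saline, with overlap. In TNBS it was 0.222, 0.304 and 0.333 with thymopentin and 1.82, 1.20 and 1.87 with saline, with no overlap. Gzmb per CD3 was 0.0356, 0.366 and 0.286 with TNBS thymopentin and 0.566, 0.543 and 0.847 with TNBS saline, and Nkg7 per CD3 was 0.280, 0.460 and 0.297 against 0.567, 0.538 and 0.982. Both stayed apart as well. Cd8a per CD3 was 0.320, 0.264 and 0.285 with TNBS thymopentin and 0.359, 0.433 and 0.600 with TNBS saline, apart by a small gap, and Cd4 per CD3 was 0.336, 0.525 and 0.950 against 0.261, 0.357 and 0.320. In DSS, Ctla4 per CD3 was 0.0725, 0.0658 and 0.0680 with thymopentin and 0.133, 0.116 and 0.101 with saline, and Ccr7 per CD3 was 0.0676, 0.139 and 0.151 against 0.199, 0.308 and 0.306. These also stayed apart, lower with thymopentin. Ifng per CD3, from low FPKM, was lower with thymopentin with no overlap in both models. In DSS it was 0.0355, 0.0155 and 0.0283 against 0.0485, 0.0494 and 0.0465. In TNBS it was 0 in each thymopentin library, against 0.0464, 0.0670 and 0.0877 with saline. Other ratios were higher with thymopentin with no overlap. In DSS these were Gzmb, Cd8a, Cd8b1 and Lck. The CD3 sum was itself lower with DSS thymopentin with no overlap, so a gene of unchanged FPKM tends to be higher per CD3. The log2 fold changes of their FPKM (limma) were -0.05, 0.10, 0.38 and -0.11 in that order, and none passed. The share of all genes separated per CD3 was not counted. Gzmb per CD3 was 0.958, 1.08 and 1.06 with DSS thymopentin and 0.837, 0.749 and 0.839 with DSS saline. Cd8a per CD3 was 0.528, 0.287 and 0.389 against 0.281, 0.257 and 0.270. Cd8b1 per CD3 was 0.378, 0.205 and 0.297 against 0.115, 0.181 and 0.159. In TNBS Ccr7 per CD3 was higher, at 1.35, 0.775 and 0.752 against 0.615, 0.744 and 0.0934. Klrd1 per CD3 overlapped in both models. It was at 0.471, 0.434 and 0.435 with thymopentin and 0.666, 0.425 and 0.607 with saline in DSS, and at 0.471, 0.375 and 2.27 with thymopentin and 0.489, 0.270 and 0.854 with saline in TNBS.

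**Figure D5:**
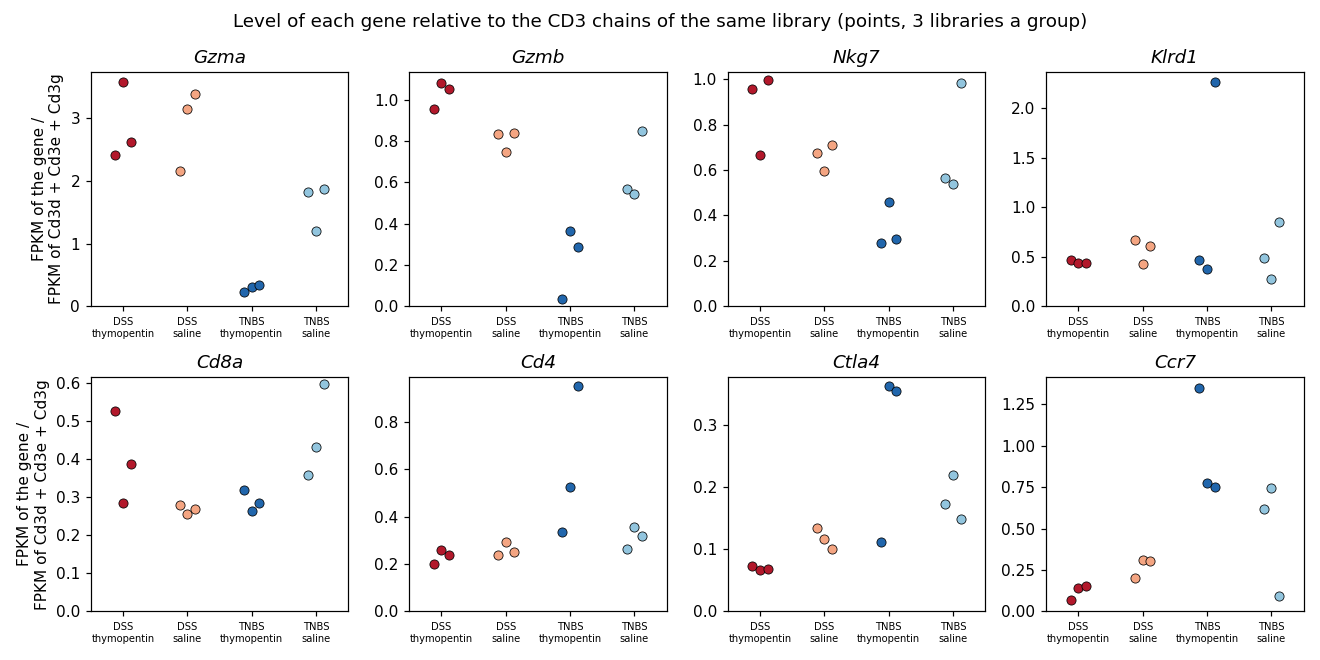
FPKM of 8 members divided by the summed FPKM of Cd3d, Cd3e and Cd3g in the same library (vertical axis, no unit, scale set per gene), 3 libraries a group (points). Gzma lies at 0.222 to 0.333 in the TNBS thymopentin libraries and at 1.20 to 1.87 in the TNBS saline libraries; TNBS thymopentin 3, with the smallest CD3 sum (0.398 FPKM), holds the highest points of Klrd1 and Cd4.

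The T cell receptor constant genes, outside the member list, are further markers of T cells. All 7 were called higher in DSS than in TNBS colons under both treatments (limma, main filter). With thymopentin in DSS 3 of 7 were called lower, all of them gamma chains: Tcrg-C1 at 3.76, 9.55 and 7.30 FPKM against 14.00, 15.2 and 13.9 FPKM with saline (log2 fold change -1.04 ± 0.25, limma adjusted p = 0.0207), Tcrg-C2 (-0.87 ± 0.23) and Tcrg-C4 (-0.73 ± 0.15). Gamma delta T cells, which carry these chains, are common in gut epithelium. Trdc, the delta chain, was not among those called, though all 7 fold changes were negative. Tcrg-C1 and Tcrg-C2 are near copies of each other that can share reads, so their separate values are uncertain. With thymopentin in TNBS 0 of 7 were called, 2 having an unadjusted p under 0.05. Of all tested genes 4.30% were called lower in the DSS response and 0.384% in the TNBS response. Between the models 11.0% were higher in DSS under thymopentin and 15.2% under saline. Trac, the alpha chain, was at 9.26, 12.98 and 14.8 FPKM with DSS thymopentin and 12.7, 22.04 and 12.02 FPKM with DSS saline, and at 2.502, 2.72 and 0.502 FPKM with TNBS thymopentin and 2.498, 4.84 and 1.55 FPKM with TNBS saline. Treatment groups overlapped in both models.

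In further lists of T cell signalling, checkpoint receptors and lymphocyte homing genes, 0 genes were called in either thymopentin response (limma; 18, 4 and 7 tested, with 4, 0 and 2 at an unadjusted p under 0.05 in DSS and 1, 0 and 0 in TNBS). Of 9 other cytotoxic and natural killer genes, 2 were called lower in DSS and 0 in TNBS, with 5 at an unadjusted p under 0.05 there. The 2 were Cd7, an early lymphocyte receptor, at 13.1, 19.01 and 20.9 FPKM with thymopentin and 27.4, 24.9 and 32.8 FPKM with saline, and Fcer1g, a signalling chain that myeloid cells carry too, at 19.5, 21.2 and 22.9 FPKM with thymopentin and 41.2, 32.9 and 41.6 FPKM with saline. All 9 were higher in DSS than in TNBS under both treatments. Of all tested genes 11.0% were higher in DSS under thymopentin and 15.2% under saline. In the thymopentin responses 4.30% of all tested genes were called lower in DSS and 0.384% in TNBS. Of 9 helper cytokines and regulators, 2 were lower in DSS and 0 were called in TNBS, with 1 at an unadjusted p under 0.05 there. Il22, the epithelial repair cytokine of Th17 cells and innate lymphoid cells, was at 0, 0.236 and 0 FPKM with DSS thymopentin and 13.1, 5.59 and 0.969 FPKM with DSS saline, where the saline libraries themselves spread widely (log2 fold change -2.40 ± 0.54, limma adjusted p = 0.0164). The transcription factor Maf was at 3.91, 1.92 and 2.98 FPKM with DSS thymopentin and 4.05, 5.92 and 5.70 FPKM with DSS saline.

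The ligands of Cxcr3 and the targets of interferon gamma were read beside Ifng. Cxcl9 was at 7.55, 8.37 and 8.99 FPKM with DSS thymopentin and 11.5, 8.25 and 11.5 FPKM with DSS saline (log2 fold change -0.28 ± 0.21, limma adjusted p = 0.370), and at 0.496, 1.18 and 0.375 FPKM with TNBS thymopentin and 3.23, 4.07 and 2.22 FPKM with TNBS saline (-1.32 ± 0.21, adjusted p = 0.0212). The DSS groups overlapped, and the TNBS groups did not. Cxcl10 was at 1.57, 1.46 and 0.438 FPKM with TNBS thymopentin and 4.24, 5.97 and 2.498 FPKM with TNBS saline and did not pass (adjusted p = 0.116), and Cxcl11, below the filter, averaged 0.115 ± 0.120 FPKM with TNBS thymopentin and 0.255 ± 0.0806 FPKM with TNBS saline. Of 11 tested ligands of the member receptors, Cxcl9 was the 1 called in TNBS. In DSS Raet1e, a stress ligand of Klrk1, was the 1 called, as higher, at 7.24, 7.15 and 6.19 FPKM with thymopentin and 4.28, 3.80 and 3.23 FPKM with saline. Of 15 interferon gamma targets, 3 were called lower with thymopentin in DSS (Nos2, Socs1 and Iigp1, log2 fold changes between -2.43 and -0.70) and 6 in TNBS (Ido1, Iigp1, Igtp, Psmb9, Nos2 and Gbp2, between -3.17 and -1.11). The difference of the responses was called for 5 of them, Ido1, Psmb9, Igtp and Tap1 having the lower response in TNBS and Nos2 in DSS. In DSS against TNBS, 11 were higher and 1 lower under thymopentin, and 8 were higher under saline. Of all tested genes 4.30% were called lower in the DSS response, 0.384% were called lower in the TNBS response, and 5.15% were called in the difference. Between the models 11.0% were higher in DSS and 16.5% lower under thymopentin, and 15.2% were higher under saline. Many of these interferon gamma targets answer type I interferon too.

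In DSS against TNBS, 8, 3 and 5 of the signalling, checkpoint and homing genes were higher under thymopentin and 10, 3 and 5 under saline. Of the helper genes 2 and 4 were higher, and of the ligands 4 and 5, with 2 ligands lower under saline. Beside these stand 11.0% of all tested genes higher under thymopentin, and 15.2% higher and 31.5% lower under saline.

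Markers of several other cell types were called in the same comparisons, B cell markers in none, and the part of these cells in the results was not tested. Of all 13794 tested genes, 11.0% were higher in DSS than in TNBS under thymopentin and 16.5% lower. Under saline these shares were 15.2% and 31.5%. With thymopentin in DSS 1753 genes were called higher and 593 lower, and in TNBS 39 higher and 53 lower. Some of the counts below are near these shares. In DSS against TNBS under thymopentin, 8 of 10 macrophage and dendritic cell markers and 1 of 10 smooth muscle and fibroblast markers were higher, 4 of 9 epithelial markers were lower and 1 higher, and 0 of 9 B cell markers were called (limma). Under saline, 10 of 10 macrophage and dendritic cell markers and 9 of 10 smooth muscle and fibroblast markers were higher, 5 of 9 epithelial markers were lower, and 0 of 9 B cell markers were called (0 at an unadjusted p under 0.05 in either). Macrophage and dendritic cell markers summed to 300 to 355 FPKM with DSS thymopentin, 399 to 552 with DSS saline, 81.1 to 168 with TNBS thymopentin and 84.8 to 219 with TNBS saline. Smooth muscle and fibroblast markers summed to 1051 to 1541 FPKM with DSS thymopentin, 2415 to 2775 with DSS saline, 1259 to 1773 with TNBS thymopentin and 603 to 1723 with TNBS saline. With thymopentin in DSS, 4 of 10 muscle and fibroblast markers and 2 of 2 tested neutrophil markers were lower, 2 of 9 epithelial markers were higher, and 0 of 9 B cell and 0 of 10 macrophage markers were called, the macrophage list with 2 at an unadjusted p under 0.05. With thymopentin in TNBS, 1 of 10 muscle and fibroblast markers and 1 of 9 epithelial markers were higher, and 0 of 9 B cell, 0 of 10 macrophage and 0 of 2 neutrophil markers were called, the last with 2 at an unadjusted p under 0.05. Of 6 innate lymphoid and mast cell markers, 3 were lower with thymopentin in DSS and 1 in TNBS, and 3 were higher in DSS than in TNBS under each treatment, with 2 lower under thymopentin and 1 under saline. Among the macrophage, muscle, epithelial and B cell lists, 0 markers were at 0 throughout a group.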

How the data were processed

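Gene expression was measured by RNA-seq in 12 colon samples, 4 groups of 3 as the labels name them. The authors deposited a table of FPKM values for all genes. They also deposited 2 tables of their own comparisons with log2 fold changes, p-values and FDR values, per the file headers, and with a log2 value per library that no header explains; from the values it is the log2 of reads divided by a size factor. Tools listed by the submitters' processing notes, without roles, are STAR 2.5, DESeq 1.22.1, Cuffnorm and FastQC, with mm9 as the build; the sources used here give no annotation, strand setting or total reads per library. From the deposited log2 values whole reads were recovered: 7219 of 7219 low values (at most 30 reads) were whole within 0.01. The deposited p-values of those tables are at most 0.0499 and their fold changes at least 1 on the log2 scale.

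From the FPKM values, log2(FPKM + 1) was computed for genes with a mean of at least 1 FPKM and fitted with limma 3.58.1 in R 4.3.3: 4 group means in 1 fit, a mean-variance trend, two-sided tests, Benjamini-Hochberg adjustment over all 13794 genes, and calls at an adjusted p under 0.05. The 5 comparisons were thymopentin against saline in DSS and in TNBS, the difference of these responses, and DSS against TNBS under each treatment. The comparisons share libraries: each response shares its groups with the model comparisons. The steps were tested on simulated data. Tables and figures were made with Python 3.11.15, pandas 2.3.3, numpy 2.4.6, scipy 1.17.1 and matplotlib 3.10.9.

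The members and lists were chosen with earlier results of these data known. All 40 members are accounted for; library values are given for those called in any comparison at the filter of 1 FPKM and for Cd3e, Cd4, Cd8a, Foxp3, Gzma, Gzmb, Ifng, Il17a and Il10. Cd2, Icos, Ctla4, Ikzf2, Klrk1, Ccr7 and others were given library values after these had been seen. Other genes are named only from the fixed lists: those called, up to 4 a list by p, and Cxcl9, Cxcl10 and Cxcl11; Trac was chosen after its values had been seen. Replicate numbers were checked for pairing by the correlation of deviations from group means over genes: same-numbered TNBS libraries had r of 0.124, 0.268 and 0.476, all above 0.1, so the numbers were taken to pair the TNBS samples, though TNBS thymopentin 1 with TNBS saline 2 had 0.287. Alternatives were a pseudocount of 0.1, a filter of 0.1 FPKM or none, both together, median-ratio rescaling, quantile normalization, array weights, only the groups compared, the replicate block and leaving out each library. Leaving out both library 3 samples of TNBS together was chosen after seeing the data.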

Additional observations from a re-analysis of the deposited data

How the results depend on the processing

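No called value changed sign under any of the alternatives. Over 2477 values of single members, 2428 kept their side of the threshold, 33 passed only under the alternative and 16 lost their call. With a library left out in turn, the count of genes called ranged from 916 to 2524 for the DSS response (2346 with all libraries), 41 to 114 for the TNBS response (92), 177 to 770 for the difference (710), 2056 to 4008 for DSS against TNBS under thymopentin (3799) and 5328 to 6453 under saline (6431). The lowest counts were without DSS saline 3 in the DSS response and the difference, without TNBS thymopentin 1 in the TNBS response, and without DSS thymopentin 3 between the models under thymopentin. Members called then ranged from 1 to 2, 0 to 1, 0 to 1, 17 to 18 and 18 to 20 in the same order of comparisons. The members' median ranged from -0.27 to -0.07, -0.44 to -0.20, -0.085 to 0.26, 1.29 to 1.58 and 1.18 to 1.51, the median of the difference being -0.085 without TNBS saline 2.

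With a pseudocount of 0.1 the members' median was -0.54 in the TNBS response and 0.47 in the difference. Between the models it was 2.34 under thymopentin and 2.05 under saline. In the difference 1 member and 711 genes were called. With a filter of 0.1 FPKM 4 members were called in the DSS response, where 2319 of 21642 genes were called. Between the models under saline 30 members and 8196 genes were called. The model medians were 0.83 under thymopentin and 0.92 under saline. With no filter 4 members and 1681 genes were called in the DSS response, and 0 members and 44 genes in the TNBS response. The difference then had 355 genes called. Between the models under saline 31 members and 7731 genes were called. The model medians were then 0.76 under thymopentin and 0.91 under saline. With the low filter and pseudocount together the medians were -0.54 (TNBS response), 0.44 (difference), 1.96 (models, thymopentin) and 1.77 (models, saline). Called were 3 members and 2177 genes in DSS, and 1 member and 689 genes in the difference. Between the models under saline it was 30 members and 8309 genes. These settings test more members or stretch low values by construction. Median-ratio rescaling called 2 members and 1747 genes in DSS. Quantile normalization called 3 members and 1798 genes in DSS, and 2 members and 98 genes in TNBS. Array weights called 3854 genes and 2 members in DSS, 1055 genes and 5 members in TNBS, and 2327 genes and 3 members in the difference. Fitting only the groups compared, with fewer samples, called 6 genes and 0 members in TNBS. With the replicate block, 4 members were called in DSS, 3 in TNBS and 2 in the difference. Of all 13794 genes, 1944, 79 and 589 were called in the same order. The DSS calls gained were Il2rb, Cd4 and Ccr7, and no member's call between the models changed. Same-numbered DSS libraries had deviations with r of -0.136, 0.0427 and -0.140, so they share only a number. Without both TNBS library 3 samples, 3 members and 2682 genes were called in DSS, and 0 members and 51 genes in TNBS. For the other settings the cause was not tested. FPKM values hold no depth, so the floor of single low genes is known only where reads could be recovered; 3 libraries a group limit what a test can call.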
